A study of Mus musculus with 4 samples.

Results

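Casein kinase 1 isoforms and the FAM83 proteins that anchor them were followed in the testis of *Ccnyl1*-/- and WT mice. The members are the probe sets that the platform annotation pairs with exactly 1 gene symbol, where that symbol is *Csnk1a1*, *Csnk1d*, *Csnk1e*, *Csnk1g1*, *Csnk1g2*, *Csnk1g3*, *Fam83a*, *Fam83d*, *Fam83g* or *Fam83h*. Controls aside, they number 24 of 45037 probe sets and read 9 of the 10 genes. The annotation gives *Fam83a* no probe set. Testis RNA came from 2 *Ccnyl1*-/- mice (labelled Ccnyl1 KO) and 2 WT mice, with 1 Affymetrix GeneChip per mouse. All 4 mice were adults of 2 months, labelled C57BL/6 and given no treatment. The *Ccnyl1*-/- mice carry a KO-first allele, in which a LacZ cassette with a stop and a polyA signal interrupts the gene without the need for a Cre, so it is not limited to 1 cell type, and they were bred from heterozygous pairs.

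Casein kinase 1 (CK1) enzymes are serine/threonine kinases that need no activating partner and often add a phosphate beside one that is already present. CK1 alpha primes beta-catenin for destruction, CK1 delta and epsilon phosphorylate the PERIOD proteins and so set the pace of the circadian clock, and the gamma isoforms sit at the plasma membrane, where they phosphorylate the Wnt co-receptor LRP6. Cyclin Y proteins act on the same co-receptor through CDK14. FAM83 proteins share a conserved amino-terminal domain that binds CK1, and each carries the kinase to a different place in the cell.

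The values are MAS5 signals, intensities on a linear scale that are computed on each array by itself. A signal can be compared between mice for 1 probe set but not between probe sets. *Ccnyl1* itself gave 921 and 969 in *Ccnyl1*-/- testes, against 2256 and 2425 in WT testes, which is -1.29 ± 0.09 (SE) as the log2 fold change, with adjusted p = 0.00463 in limma, so both knockout arrays carried the lower signal that their labels imply. Testis genes were bright on every array, with *Prm1*, which packs sperm DNA, at 39454 and 38943 in *Ccnyl1*-/- testes and at 36539 and 36889 in WT testes. Of 8 listed epididymis genes, 5 had a probe set of their own, 2 of these reached the minimum signal for testing, and neither passed. *Lcn8* had 58.2 and 54.1 in *Ccnyl1*-/- testes, against 12.3 and 26.2 in WT testes (unadjusted p = 0.0397 from limma), and *Rnase10* had 179 and 178 in *Ccnyl1*-/- testes, against 246 and 162 in WT testes. Over 10 lists of marker genes for cell types, no gene passed the test, where 0.0123% of all tested probe sets did. The lowest unadjusted p among their tested genes was that of *H2-Aa*, a gene of the macrophage list. It had 288 and 307 in *Ccnyl1*-/- testes, against 487 and 446 in WT testes (unadjusted p = 0.00176, adjusted p = 0.645 from limma). In whole tissue, fewer cells of a type and less RNA per cell cannot be told apart. The precision is limited by having 2 arrays in each group, and a two-sided exact permutation test of 1 value cannot go below 0.333.

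**Figure D1:**
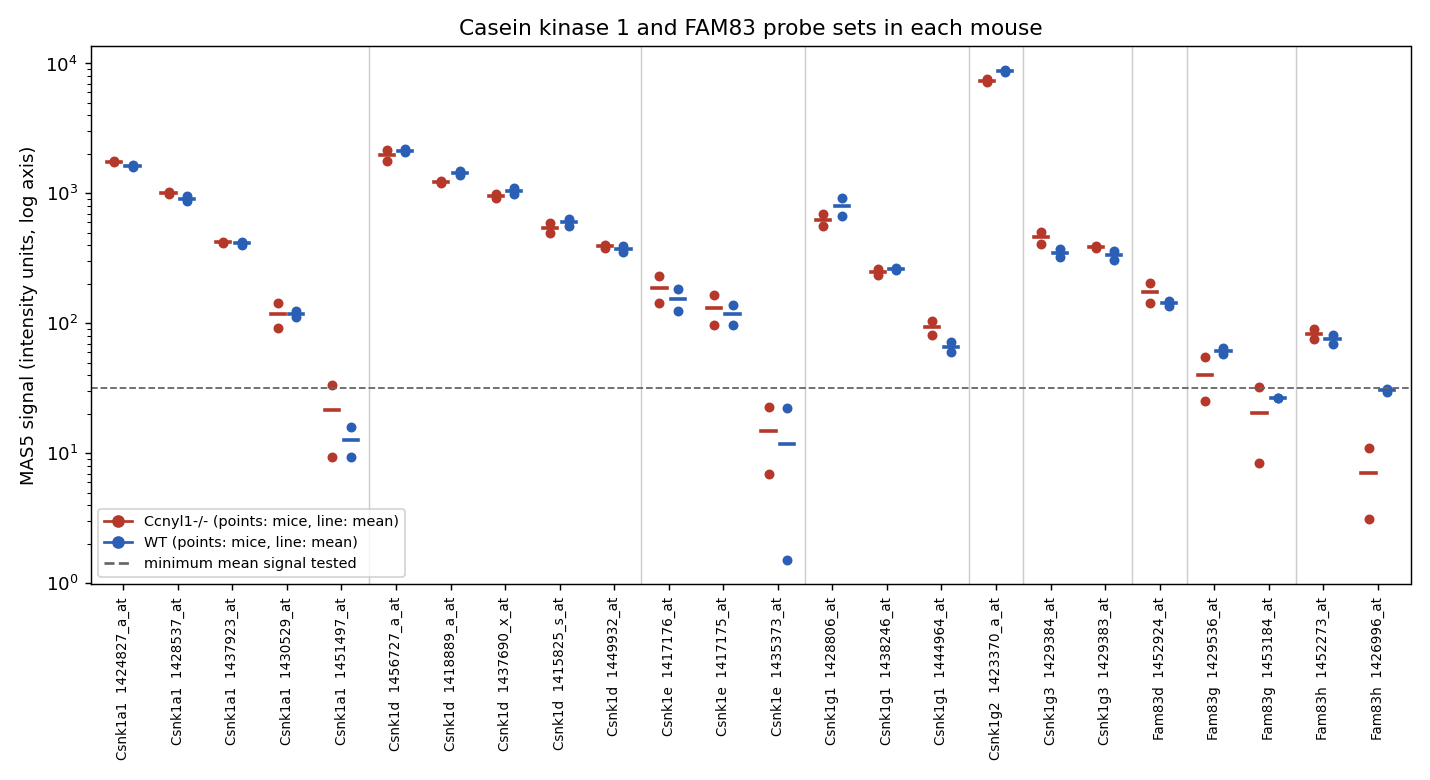
MAS5 signal (intensity units, log axis) of the 24 member probe sets, ordered by gene, with *Ccnyl1*-/- mice left of WT mice, a point per mouse and a line at the mean of 2 mice. The dashed line is the minimum mean signal for testing, 32, and the 4 probe sets whose mean lies under it belong to *Csnk1a1*, *Csnk1e*, *Fam83g* and *Fam83h*.

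No casein kinase 1 or FAM83 member differed between *Ccnyl1*-/- and WT testes past the test. Of the 24 probe sets, 20 averaged 32 or more over the 4 arrays and were compared by limma on log2(signal + 16), and 0 of these 20 had an adjusted p under 0.05, where 0.0123% of all 32438 tested probe sets did, all of them lower. At an unadjusted p under 0.05 there were 3 of 20, against 6.05% of all tested probe sets. These were 2 lower, against 2.59%, and 1 higher, against 3.47%. The log2 fold changes of *Ccnyl1*-/- over WT ran from -0.51 for *Fam83g* to 0.41 for a dim probe set of *Csnk1g1*, with a median of 0.05, beside 0.02 over all tested probe sets. Of the 20, 11 were above 0 and 9 below, where 54.8% of all tested probe sets were above and 45.2% below. Among all probe sets with an unadjusted p under 0.05, 57.3% were higher, but 31.0% were with arrays scaled to one median. Knockout and WT mice were fully apart for 8 of 20, 5 higher and 3 lower in *Ccnyl1*-/- testes, against 35.9% of all tested probe sets (20.6% higher and 15.3% lower). The median of the members changed sign with the scaling, to -0.01 with arrays scaled to one median, while that of all tested probe sets was then -0.03. The 95% interval stayed inside 2-fold for 18 of 20, as for 75.8% of all tested probe sets, and the exceptions were 1 probe set each of *Csnk1g1* and *Fam83g*.

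**Figure D2:**
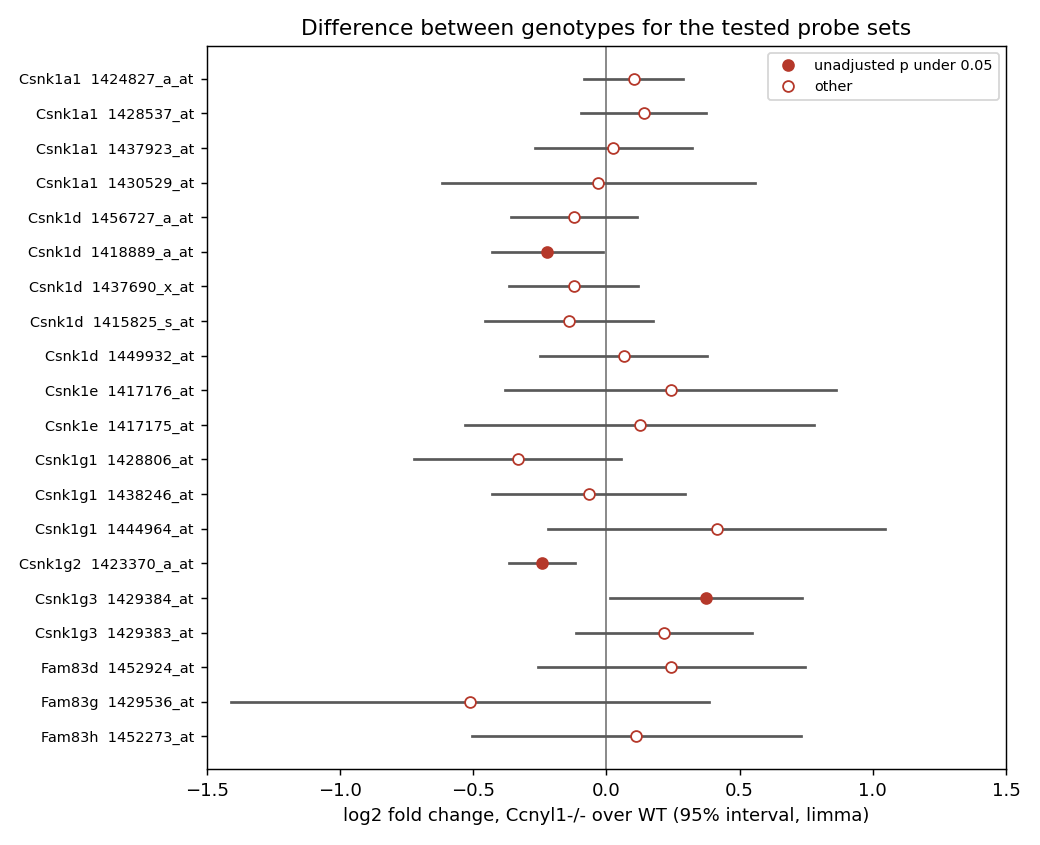
The 20 tested member probe sets by their log2 fold change, *Ccnyl1*-/- over WT, with the 95% interval of limma as a line, and filled points where the unadjusted p is under 0.05. The filled points are 1 probe set each of *Csnk1d*, *Csnk1g2* and *Csnk1g3*, and the widest interval is that of *Fam83g*, from -1.41 to 0.39.

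*Csnk1g2*, a membrane-bound gamma isoform that is known in mice for binding RIPK3 and slowing necroptotic ageing of the testis, was the member nearest to a call. Its single probe set, 1423370_a_at, gave 7161 and 7549 in *Ccnyl1*-/- testes, against 8841 and 8561 in WT testes. Both knockout mice lay below both WT mice. The means were 7355 ± 274 (SD, n = 2) in *Ccnyl1*-/- and 8701 ± 198 (SD, n = 2) in WT testes, so the knockout kept 84.5% of the WT signal. The log2 fold change was -0.24 with a 95% interval from -0.37 to -0.12 (unadjusted p = 0.00191, adjusted p = 0.645 from limma, which took in all 32438 probe sets), and the difference was not a call. An unadjusted p under 0.05 with a lower knockout signal was seen at 2.59% of all tested probe sets, and at 11.7% of the 1621 that averaged 5000 or more, a limit chosen after the values were seen. Those bright probe sets had a median log2 fold change of -0.04, 67.6% lay below 0, and 35.9% of them had lower knockout mice with no overlap. With 1 mouse left out, *Csnk1g2* ran from -0.28 to -0.20, and with the other scalings and offsets from -0.30 to -0.21, always without passing. Its unadjusted p was 0.0923 without the variance trend.

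*Csnk1g3*, the next gamma isoform, had higher signals in *Ccnyl1*-/- testes on both of its probe sets, neither of which passed. Probe set 1429384_at gave 410 and 508 in *Ccnyl1*-/- testes, against 323 and 376 in WT testes, a log2 fold change of 0.37 (95% interval 0.02 to 0.73, unadjusted p = 0.0428, adjusted p = 0.814 from limma). Probe set 1429383_at gave 395 and 382 in *Ccnyl1*-/- testes, against 359 and 307 in WT testes, a log2 fold change of 0.22 (95% interval -0.11 to 0.55). The genotypes did not overlap on either, and higher knockout mice with no overlap were seen at 20.6% of all tested probe sets. Both probe sets rest on the same sequence record and read the same mice. The unadjusted p of 1429384_at was no longer under 0.05 with quantile normalization or with arrays scaled to one median, where its log2 fold change was 0.34 and 0.32, nor without WT replicate 1 (0.27) or *Ccnyl1*-/- replicate 2 (0.23).

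*Csnk1g1*, the remaining gamma isoform, gave no common direction over its 3 probe sets. The brightest, 1428806_at, had 560 and 694 in *Ccnyl1*-/- testes, against 674 and 923 in WT testes, a log2 fold change of -0.33 (95% interval -0.72 to 0.05). The dimmest, 1444964_at, had 105 and 82.1 in *Ccnyl1*-/- testes, against 71.9 and 60.1 in WT testes, a log2 fold change of 0.41 (95% interval -0.22 to 1.05). On the first the mice of the genotypes overlapped, with 1 knockout mouse above 1 WT mouse, and on the second they did not. The third, 1438246_at, had 265 and 235 in *Ccnyl1*-/- testes, against 256 and 267 in WT testes, and lay at -0.07. The intervals of all 3 overlap, and whether the probe sets differ from each other was not tested. The brightest probe set rested on single mice, at -0.55 without WT replicate 1, -0.48 without *Ccnyl1*-/- replicate 2, -0.18 without *Ccnyl1*-/- replicate 1 and -0.11 without WT replicate 2, and it passed in none of these.

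*Csnk1d*, a clock kinase, has 5 probe sets, of which 4 had a lower mean in *Ccnyl1*-/- testes. Probe set 1418889_a_at gave 1254 and 1213 in *Ccnyl1*-/- testes, against 1492 and 1391 in WT testes, with no overlap. Its log2 fold change was -0.22 (95% interval -0.43 to -0.01, unadjusted p = 0.0396, adjusted p = 0.81 from limma). Without 1 mouse its log2 fold change ran from -0.27 to -0.17 and kept its sign. With fewer arrays its unadjusted p mostly did not stay under 0.05. Without the variance trend, over all 4 arrays, that p was 0.121 from limma. The brightest, 1456727_a_at, gave 1776 and 2163 in *Ccnyl1*-/- testes, against 2183 and 2084 in WT testes, a log2 fold change of -0.12, and here 1 knockout mouse lay within the WT range. Probe set 1437690_x_at, whose suffix marks probes that may also bind other transcripts, had 921 and 997 in *Ccnyl1*-/- testes, against 1102 and 991 in WT testes, and lay at -0.12. The probe set 1449932_at, with 404 and 378 in *Ccnyl1*-/- testes and 391 and 356 in WT testes, lay at 0.06. It and 1418889_a_at rest on different RefSeq transcripts of *Csnk1d*, and whether these differ in response was not tested. Probe set 1415825_s_at lay at -0.14 with overlapping mice, 494 and 595 in *Ccnyl1*-/- and 563 and 636 in WT testes. The platform annotation names it *Csnk1d*, but its accession belongs to *Slc38a10*, an amino acid transporter gene, in the RefSeq table of GRCm38.p6, so its gene is uncertain. Of 4525 tested probe sets with 1 gene and an accession in that table, 11 had another symbol there.

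*Csnk1e*, the close relative of *Csnk1d*, was measured by 2 dim probe sets that varied more between mice of a genotype than between genotypes. Probe set 1417176_at gave 231 and 143 in *Ccnyl1*-/- testes, against 185 and 124 in WT testes, a log2 fold change of 0.24 (95% interval -0.38 to 0.86). Probe set 1417175_at gave 166 and 97.9 in *Ccnyl1*-/- testes, against 137 and 97.7 in WT testes, a log2 fold change of 0.13 (95% interval -0.53 to 0.78). In each genotype the mouse numbered 1 was the higher on both probe sets. The summed signal of the Leydig cell genes was higher in the same mice, with 9293 and 5220 in *Ccnyl1*-/- testes, against 7149 and 3935 in WT testes. That sum holds 5 of the 7 listed genes, none of them at 0. Most of it is *Cyp17a1*, with 6164 and 2731 in *Ccnyl1*-/- testes, against 4117 and 2009 in WT testes. Within the *Ccnyl1*-/- mice *Star* and *Hsd3b1* went the other way, *Star* with 518 and 740 in *Ccnyl1*-/- testes, against 507 and 336 in WT testes. The sums of the macrophage genes (1984 and 1767 in *Ccnyl1*-/- testes, against 3021 and 1976 in WT testes) and of the peritubular myoid genes (3405 and 3015 in *Ccnyl1*-/- testes, against 2969 and 2786 in WT testes) were higher in those mice too. So were those of the spermatogonia genes (10598 and 10505 in *Ccnyl1*-/- testes, against 10508 and 9927 in WT testes). The sums of the epididymis genes were as well (237 and 232 in *Ccnyl1*-/- testes, against 258 and 188 in WT testes). The sums of the other marker lists were not higher in the mouse numbered 1 of both genotypes. Bright probe sets weigh most in each sum, and the genes of a list did not all follow it. Within the *Ccnyl1*-/- mice, *Adgre1*, *Cd74* and *H2-Aa* of the macrophage list were higher in the mouse numbered 2. So were *Dazl*, *Gfra1* and *Stra8* of the spermatogonia list and *Cnn1* of the myoid list. Most of the Sertoli sum is *Clu*, with 15989 and 15661 in *Ccnyl1*-/- testes, against 16361 and 17332 in WT testes. The part of any of these cells in the *Csnk1e* values was not tested. Without 1 mouse the probe sets ran from -0.08 to 0.56 and from -0.21 to 0.46, so that their sign turned. The third probe set, 1435373_at, had 7.00 and 22.7 in *Ccnyl1*-/- testes, against 22.3 and 1.51 in WT testes, and was not tested.

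*Csnk1a1*, the alpha isoform that FAM83 proteins bind, was close to its WT level on its bright probe sets. Probe set 1424827_a_at gave 1741 and 1765 in *Ccnyl1*-/- testes, against 1662 and 1600 in WT testes, a log2 fold change of 0.10 (95% interval -0.08 to 0.29). Probe set 1428537_at gave 1026 and 986 in *Ccnyl1*-/- testes, against 871 and 952 in WT testes, a log2 fold change of 0.14 (95% interval -0.09 to 0.37). Both knockout mice lay above both WT mice on each of these, and neither passed (adjusted p = 0.88 and 0.873 from limma). Of the dimmer ones, 1437923_at had 424 and 417 in *Ccnyl1*-/- and 402 and 423 in WT testes (log2 fold change 0.03), and 1430529_at had 144 and 91.6 in *Ccnyl1*-/- and 124 and 112 in WT testes (-0.03). The mice of the genotypes overlapped on both. The dimmest, 1451497_at, had 33.6 and 9.33 in *Ccnyl1*-/- testes, against 9.43 and 15.9 in WT testes, and was not tested.

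The FAM83 anchors among the members were all dim, and none passed. *Fam83d*, which brings CK1 alpha to the mitotic spindle, gave 145 and 205 in *Ccnyl1*-/- testes, against 137 and 150 in WT testes, a log2 fold change of 0.24 (95% interval -0.26 to 0.74). Only 1 knockout mouse lay above the WT range. *Fam83g*, also called PAWS1 and known for its part in BMP and Wnt signalling, gave 25.3 and 55.6 on probe set 1429536_at in *Ccnyl1*-/- testes, against 65.1 and 58.1 in WT testes. Its log2 fold change of -0.51 is the farthest from 0 among the 20 tested member probe sets, but with a 95% interval from -1.41 to 0.39, and without 1 mouse it ran from -0.91 to -0.11. The second probe set of *Fam83g*, 1453184_at, had 32.5 and 8.41 in *Ccnyl1*-/- testes, against 26.6 and 26.7 in WT testes, and was not tested.

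*Fam83h*, whose truncation is known in humans to disturb tooth enamel and which brings CK1 to keratin filaments, gave different pictures on its 2 probe sets. Probe set 1452273_at had 90.2 and 75.9 in *Ccnyl1*-/- testes, against 69.4 and 81.7 in WT testes, a log2 fold change of 0.11 (95% interval -0.50 to 0.73). Probe set 1426996_at had 10.99 and 3.15 in *Ccnyl1*-/- testes, against 29.6 and 31.4 in WT testes. On the first the mice overlapped, and on the second both knockout mice were lower, but its mean signal lies under 32. When no minimum was set, over 45037 probe sets, the second had a log2 fold change of -1.03 (95% interval -1.87 to -0.20, unadjusted p = 0.0224, adjusted p = 0.829 from limma) and did not pass either. At that setting, an unadjusted p under 0.05 was seen for 4 of 24 members and for 5.85% of all probe sets. The other member probe sets under the minimum then lay at 0.32 (*Csnk1a1*), 0.21 (*Csnk1e*) and -0.31 (*Fam83g*), each with an interval that held 0.

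*Fam83e*, a family member outside the list, passed the test on 1 of its 2 probe sets. Probe set 1430717_at gave 1597 and 1698 in *Ccnyl1*-/- testes, against 3315 and 3538 in WT testes, at a log2 fold change of -1.05, for which limma gave adjusted p = 0.00503. Its second probe set, 1439430_x_at, gave 342 and 431 in *Ccnyl1*-/- testes, against 930 and 659 in WT testes, where limma gave adjusted p = 0.512, not a call. Whether its change differs from that of each member was not tested. The 95% interval of 1430717_at itself ran from -1.23 to -0.87. Among the tested member probe sets, only that of *Fam83g* had a 95% interval that reached -1.05. With no minimum set, the intervals of *Fam83h* 1426996_at (-1.87 to -0.20) and *Fam83g* 1453184_at (-1.33 to 0.71) reached it too. The only probe set of *Fam83f* gave 3.67 and 21.5 in *Ccnyl1*-/- testes, against 17.6 and 10.2 in WT testes, and was not tested.

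**Figure D3:**
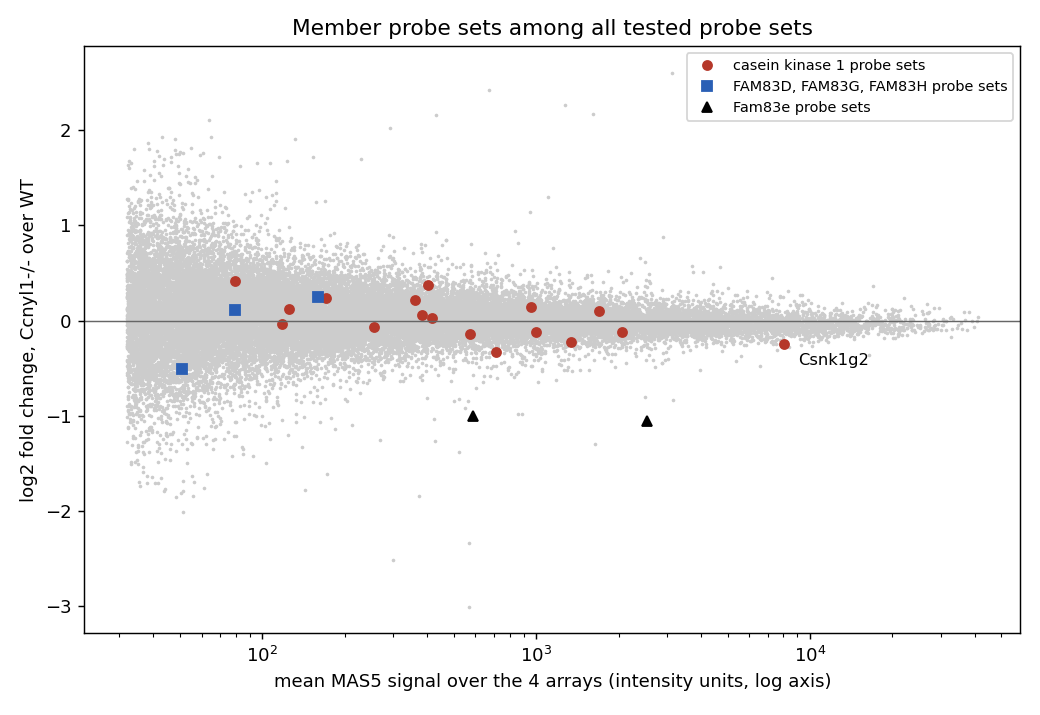
Log2 fold change, *Ccnyl1*-/- over WT, by mean MAS5 signal over the 4 arrays (log axis), with all 32438 tested probe sets as grey points, casein kinase 1 probe sets as circles, those of *Fam83d*, *Fam83g* and *Fam83h* as squares and the 2 of *Fam83e* as triangles. The member probe sets lie between -0.51 and 0.41, and those of *Fam83e* lie at -1.05 and -0.997.

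Genes that act with these kinases or are acted on by them also stayed without a call, apart from *Fam83e*. These lists use the brightest tested probe set of each gene. To set beside each list, 0.0123% of all tested probe sets passed and 54.8% were above 0. Their median log2 fold change was 0.02. Of 14 tested genes of the Wnt destruction complex and its receptors, 0 passed, 8 were above 0 and 6 below, and the median log2 fold change was 0.02. *Lrp6*, the co-receptor that CK1 gamma phosphorylates, was the highest at 0.34, with 161 and 160 in *Ccnyl1*-/- testes, against 130 and 116 in WT testes (unadjusted p = 0.121 from limma). *Fbxw11*, a ubiquitin ligase subunit that takes up phosphorylated beta-catenin, was the lowest at -0.13, with 2010 and 1913 in *Ccnyl1*-/- testes, against 2258 and 2054 in WT testes.

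Of 11 circadian clock genes, 0 passed, 9 were above 0 and 2 below, with a median of 0.12. Over all tested probe sets, 54.8% were above 0, with a median of 0.02. *Nr1d1*, a nuclear receptor that represses the clock activator *Arntl*, was the highest at 0.54, with 192 and 210 in *Ccnyl1*-/- testes, against 115 and 153 in WT testes (unadjusted p = 0.0289, adjusted p = 0.797 from limma). Both knockout mice were above both WT mice. *Per3*, a PERIOD gene, was the lowest at -0.14 on its brightest probe set, while its 4 other tested probe sets ran from 0.18 to 0.22. Among the substrates of CK1 delta and epsilon proper, *Per1* had 1306 and 1262 in *Ccnyl1*-/- testes, against 1275 and 1281 in WT testes, a log2 fold change of 0.01, and the brightest of 3 *Per2* probe sets lay at 0.22 while its dimmer ones lay at -0.30 and -0.72. No source used here gives the time of day at which the testes were taken.

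Among the 9 spindle partners of FAM83D, 0 passed, 7 were above 0 and 2 below, with a median of 0.01. *Hmmr*, the protein through which FAM83D reaches the spindle, had 561 and 556 in *Ccnyl1*-/- testes, against 555 and 520 in WT testes, a log2 fold change of 0.05. *Tpx2*, a spindle assembly factor, was the highest at 0.16 and *Kif22*, a chromosome-arm kinesin, the lowest at -0.09. Of 7 BMP signalling genes, 0 passed, 5 were above 0 and 2 below (median 0.08, and 0.0039 without WT replicate 1), with the receptors *Bmpr1a* at 0.25 and *Bmpr1b* at -0.32. Of 8 Hedgehog genes and simple-epithelial keratins, 0 passed, 2 were above 0 and 6 below. Their median of -0.03 rested on single mice, at 0.32 without WT replicate 1 and -0.29 without WT replicate 2. *Gli2*, a Hedgehog transcription factor, was the highest at 0.50 and the keratin *Krt18* the lowest at -0.10, both dim.

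Of 8 kinases that resemble CK1 or share only its name, 0 passed, 4 were above 0 and 4 below, with a median of -0.02. *Ttbk2*, a CK1-related kinase that starts the growth of cilia, was the highest at 0.26 on its brightest probe set, with 864 and 867 in *Ccnyl1*-/- testes, against 744 and 701 in WT testes (unadjusted p = 0.0389, adjusted p = 0.81 from limma). Its other 2 probe sets had log2 fold changes of 0.28 and 0.34, and on each of the 3 both knockout mice lay above both WT mice. Of all tested probe sets taken singly, 20.6% had that order, and the 3 read the same mice. How often all probe sets of a gene have it was not counted. *Csnk2a1*, the catalytic subunit of the unrelated casein kinase 2, was the lowest at -0.28, with 316 and 337 in *Ccnyl1*-/- testes, against 415 and 384 in WT testes (unadjusted p = 0.0765 from limma). Its other 5 probe sets ran from -0.03 to 0.17.

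**Figure D4:**
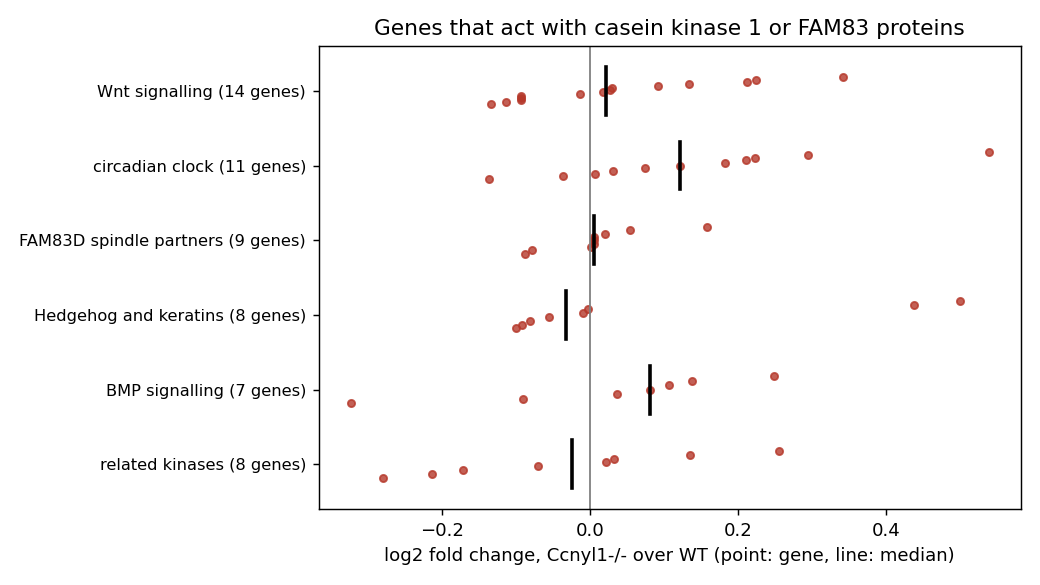
Log2 fold change, *Ccnyl1*-/- over WT, of genes in 6 lists that act with casein kinase 1 or FAM83 proteins or resemble the kinases, 1 point per gene, spread vertically by rank, with a line at the median. The medians lie between -0.03 and 0.12, and the farthest genes are *Nr1d1* at 0.54 and the dim *Bmpr1b* at -0.32.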

How the data were processed

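The authors hybridised testis RNA of each mouse to 1 Affymetrix mouse GeneChip and deposited MAS5 signals, intensities on a linear scale, per probe set. MAS5 works array by array: background is removed, mismatch probes correct the perfect-match ones, and 1 factor scales the whole array. The trimmed mean was 500.0 on all 4 arrays (2% left out at each end), which is above the target that the methods state, and the median of all probe sets that are not controls ran from 91.8 to 97.1 in *Ccnyl1*-/- and from 88.5 to 90.3 in WT testes. The scaling was kept as deposited. Probe sets were named through the platform annotation, which pairs 34945 with 1 gene, 932 with several and 9160 with none.

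Log2(signal + 16) was compared with limma 3.58.1 in R 4.3.3 (lmFit, and eBayes with a variance trend), with genotype as the only term, over 32438 probe sets with a mean signal of at least 32, and the Benjamini-Hochberg adjustment of p-values ran over all of them (threshold 0.05). Folds of dim probe sets are understated on this scale. The test was checked on simulated data. The members, gene lists and tests were chosen with earlier results of these data known. Named are every member probe set, *Ccnyl1*, *Fam83e* and, of each related list, the genes past the test or else the highest and lowest. Named after their values were seen were *Hmmr*, *Per1*, *Per2*, *Prm1*, *Cyp17a1*, *Star*, *Hsd3b1*, *Lcn8*, *Rnase10* and *Fam83f*. The same holds for *Adgre1*, *Cd74*, *H2-Aa*, *Dazl*, *Gfra1*, *Stra8*, *Cnn1* and *Clu*. Alternatives were other offsets, minimums, scalings and variance models, a replicate block, the methods' t-test and leaving out each mouse, which leaves 1 mouse in a genotype that is then assumed to vary like the other.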

Additional observations from a re-analysis of the deposited data

How the results depend on the processing

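No member probe set passed after adjustment under any alternative run. At an unadjusted p under 0.05, there were 3 members, of *Csnk1d*, *Csnk1g2* and *Csnk1g3*, but 0 without the variance trend and 1, of *Csnk1g2*, with the methods' t-test, which gave 1900 of all probe sets unadjusted and 0 after Benjamini-Hochberg. Without 1 mouse there were 2 to 3, not always of the same genes: *Csnk1g1* and *Csnk1g2* without WT replicate 1, and *Csnk1g1*, *Csnk1g2* and another *Csnk1d* probe set, 1456727_a_at, without *Ccnyl1*-/- replicate 2. Over the whole table, the 4 calls became 0 without the trend and 6 to 55 without 1 mouse (46 without WT replicate 1, 55 without WT replicate 2, 7 without *Ccnyl1*-/- replicate 1). The replicate numbers are not said to pair the mice, and deviations of same-numbered mice correlated at 0.014 over probe sets. With the replicate number as a block there were 14 calls, none of a member, and 4 members at an unadjusted p under 0.05, *Csnk1g1* added.

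Of 20 member probe sets, 12 of the 291 alternative values changed sign. *Csnk1a1* 1437923_at had -0.00852 with quantile normalization and -0.0261 with arrays scaled to one median, and ran from -0.00746 to 0.0613 without 1 mouse. Without 1 mouse, *Csnk1a1* 1430529_at ran from -0.32 to 0.26, *Csnk1d* 1449932_at from -0.00023 to 0.13, *Csnk1d* 1456727_a_at from -0.26 to 0.0204, *Csnk1e* 1417175_at from -0.21 to 0.46, *Csnk1e* 1417176_at from -0.0778 to 0.56 and *Csnk1g1* 1438246_at from -0.15 to 0.0152. The cause was not tested. The median over the members was 0.05, and -0.03 to 0.07 without 1 mouse. The median over the clock genes stayed above 0, from 0.06 to 0.14, while arrays scaled to one median turned the Wnt and spindle medians to -0.03 and -0.05. Intervals were widest for the dim *Csnk1e* and FAM83 probe sets and for 1444964_at of *Csnk1g1* and 1430529_at of *Csnk1a1*. Scaling to one median was added for the lists after the values were seen.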

Other observations

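Several partner genes were read by probe sets with different directions, as *Csnk1g1* was, and none of these passed the test. The 5 tested probe sets of *Fbxw11* had log2 fold changes of -0.17 and -0.13 on the bright ones and 0.42, 0.45 and 0.45 on the dim ones, where both *Ccnyl1*-/- mice lay above both WT mice. Both knockout mice were the higher ones at 20.6% of all tested probe sets. The BMP receptor gene *Bmpr1a* ran from -0.17 to 0.51 over its 5 tested probe sets, and 1425493_at, the highest, gave 237 and 197 in *Ccnyl1*-/- testes, against 162 and 133 in WT testes (unadjusted p = 0.0299, adjusted p = 0.797 from limma).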
